A study of Mus musculus with 6 samples.

Results

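The ATF4 and CHOP effector genes are 10 genes that act downstream of the transcription factors ATF4 and CHOP: Trib3, Chac1, Sesn2, Ddit4, Nupr1, Ppp1r15a, Gdf15, Vldlr, Stc2 and Fgf21. They were chosen by name, without a cut on measured values, from the 55291 genes listed in the data. Polyadenylated RNA was sequenced from wild-type mouse embryonic fibroblasts (WT MEFs), cultured cells of the embryo's connective tissue. The groups were vehicle, MASM7 at 1 μM for 6 h, a small molecule that activates the mitofusins, and MFI8 at 20 μM for 6 h, a small molecule that inhibits them. Mitofusins are the GTPases that tether and fuse the outer membranes of mitochondria. Each of the 3 groups had 2 libraries, described by the submitters as independent biological replicates, and all cells carried the WT genotype. The concentrations and times come from the study's description of its RNA-seq panels, and how long the vehicle cells were treated is not stated in the sources used here. Because the compounds were given at different concentrations, compound and concentration cannot be told apart.

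The integrated stress response starts when a kinase phosphorylates the translation initiation factor eIF2α, which slows general protein synthesis and favours translation of ATF4. ATF4 induces amino acid transport and synthesis genes and other transcription factors, among them CHOP (encoded by Ddit3) and ATF3. ATF4 and CHOP then act together, often with C/EBP partners, on effector genes that reverse the translation block, restrain growth through mTORC1, alter the redox state or send signals out of the cell. In fibroblasts the response is known to follow amino acid shortage, endoplasmic reticulum stress and mitochondrial stress.

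The 6 libraries held 22791792 to 30677751 counts on genes, and levels are given as CPM, the counts scaled to the size of each library. A total of 14290 genes passed the filter on low counts in edgeR and were tested, among them 9 of the 10 effector genes. Gdf15 did not pass the filter. In each group the 2 replicates differed by more than sampling noise, with a chi-square of 7.06 to 7.69 per degree of freedom over genes. Of 12 fibroblast markers, summed at 8453 to 10580 CPM, the collagens, fibronectin and vimentin were abundant, while Thy1 had 6 to 19 counts and Lum 1 to 4. Of 14 markers of epithelial, endothelial, blood, neural and muscle cells, the sum was 4.75 to 5.57 CPM, most of it Cd68, and Kdr, Adgre1, Sox2 and Myod1 had 0 counts in every library. In RNA from bulk cultures, a change in the number of expressing cells and a change in RNA per cell cannot be told apart.

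The promoter windows of the effector genes are shown because they are where a regulatory element for ATF4 or its partners would be looked for. All 10 genes had a RefSeq window of 300 bases on GRCm38.p6, with 250 bases before and 50 after the annotated start, and Gdf15 and Vldlr had 2 windows each. The C/EBP-ATF response element (CARE, TGATGNAA, searched on both strands) is the composite site of ATF4 and a C/EBP protein. It matched in 5 of the 10 genes. Counted by window, 3.97% of 32851 windows of the same length held it, and counted by gene, 253 of the 9816 tested genes with a window. All 5 matches lay on the strand opposite to the gene, so they read TTGCATCA or, in Trib3, TTACATCA along the gene. The printed stretches of 28 bases run 5′ to 3′ along the gene, with the match in capitals and 10 bases on either side.
Trib3, chr2:152344029-152344056, minus strand: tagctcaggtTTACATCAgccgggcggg
Nupr1, chr7:126625563-126625590, minus strand: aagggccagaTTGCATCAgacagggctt
Vldlr, chr19:27216810-27216837, plus strand: gcagcaatagTTGCATCAgcgctcctag
Fgf21, chr7:45615612-45615639, minus strand: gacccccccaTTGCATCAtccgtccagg

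The Trib3 match occupied positions 15 to 22 after the RefSeq start, inside the transcribed part of that model. In the GENCODE model, which starts at chr2:152344032 on the minus strand, the same match lies before the start. The match lay from -110 to -103 in Nupr1, from -139 to -132 in Fgf21 and from -200 to -193 before the second listed start of Vldlr. The full cyclic AMP response element (CRE, TGACGTCA, both strands, overlapping no CARE match here) matched in Ppp1r15a alone of the 10 genes, from -12 to -5. It was held by 1.79% of all windows and, counted by gene, by 359 of the 9816 tested genes with a window. Sesn2, Ddit4, Stc2 and Gdf15 held neither string in these windows, which says nothing of sites elsewhere or of sites that differ by a letter. The map of motif positions gives all 12 windows.

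**Figure D1:**
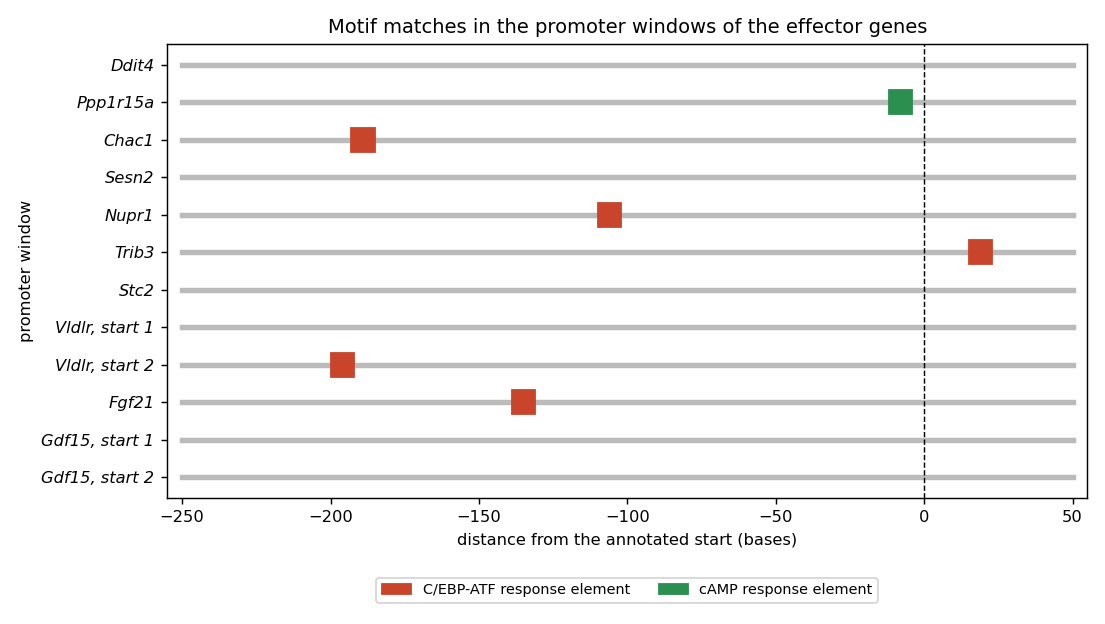
Each grey line is a RefSeq promoter window of an effector gene, drawn by distance in bases from the annotated start (dashed line), and blocks mark exact matches of the C/EBP-ATF response element (red) or the cAMP response element (green). Red blocks stand in 5 of 10 genes and the only green block lies next to the start of Ppp1r15a.

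Chac1 and Ppp1r15a had the smallest p for MFI8 against vehicle among the effector genes, and for that reason, seen in the data, the whole 250 bases before their RefSeq starts are printed, 5′ to 3′ along the gene. The capitals mark the CARE match of Chac1, at -193 to -186, and the CRE match of Ppp1r15a.
Chac1, chr2:119350992-119351241, plus strand: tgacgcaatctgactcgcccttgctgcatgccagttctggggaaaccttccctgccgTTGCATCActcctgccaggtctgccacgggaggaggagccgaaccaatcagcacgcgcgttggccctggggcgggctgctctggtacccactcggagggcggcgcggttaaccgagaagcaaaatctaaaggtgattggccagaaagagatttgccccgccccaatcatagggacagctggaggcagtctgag
Ppp1r15a, chr7:45526269-45526518, minus strand: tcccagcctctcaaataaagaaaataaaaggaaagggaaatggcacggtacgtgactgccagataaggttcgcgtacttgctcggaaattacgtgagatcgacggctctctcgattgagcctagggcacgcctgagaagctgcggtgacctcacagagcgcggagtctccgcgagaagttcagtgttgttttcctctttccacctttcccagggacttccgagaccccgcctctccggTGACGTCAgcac

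In vehicle-treated cells the effector genes covered a wide range of length-corrected levels. In TPM, which also corrects for transcript length (n = 2, ± SD), the order was Ddit4 at 43.4 ± 3.09, Ppp1r15a at 31.6 ± 0.829, Chac1 at 29.9 ± 2.40, Sesn2 at 28.5 ± 3.59, Nupr1 at 18.2 ± 1.81, Trib3 at 12.4 ± 3.23, Stc2 at 9.98 ± 1.03, Vldlr at 7.04 ± 0.156, Fgf21 at 1.72 ± 0.542 and Gdf15 at 0.115 ± 0.162. Ppp1r15a, Chac1 and Sesn2 followed one another with overlapping libraries, as did Trib3 and Stc2, while the other neighbours in this order did not overlap. All 10 are protein-coding genes in GENCODE vM21, and the positions given with each gene are its span on GRCm38 in that annotation. Their exonic length ran from 951 bases for Fgf21 to 10068 bases for Vldlr. Only Ppp1r15a shared exonic bases with another gene, 12 bases or 0.409% of its exonic length, with Tulp2 on the opposite strand.

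Of the 9 effector genes tested, 8 had a log2 fold change above 0 for MFI8 against vehicle, Ddit4 was at -0.037, and Gdf15 was not tested. The fitted values of Chac1, Fgf21 and Trib3 were a little over 2-fold higher, and those of Ppp1r15a, Sesn2, Stc2, Nupr1 and Vldlr were 1.27-fold to 1.49-fold higher. In 8 of the 9 genes tested, both MFI8 libraries lay above both vehicle libraries, as was the case for 20.9% of all genes tested. The same 8 genes had an unadjusted p under 0.05 with a higher level, against 5.21% of all genes. Once p was adjusted over all genes, edgeR with the filter on low counts called 0 of the 9 effector genes and 0 of the 14290 genes (0%) at an adjusted p under 0.05. In that fit 1409 genes had an unadjusted p under 0.05. DESeq2 called 1 effector gene, Ppp1r15a, among 48 genes in all (0.368%). With every gene of at least 1 count in a library kept, edgeR called 4 of the 10 effector genes, Chac1, Trib3, Ppp1r15a and Sesn2, among 256 genes in all. That filter kept at least the 21558 genes counted in the MFI8 replicate 2 library. The median log2 fold change was 0.48 over the 9 effector genes and 0.0027 over all genes tested.

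The replicate numbers changed this outcome. When edgeR was run with the replicate number as a blocking term (the block), 7 of the 9 effector genes passed as higher (Chac1, Trib3, Ppp1r15a, Sesn2, Stc2, Vldlr and Nupr1) and 0 as lower, against 2.79% of all genes higher and 2.25% lower. The labels name no batch or day that libraries of the same number share, and there are only 2 numbers, so the blocked values are given beside the unblocked ones and not in their place. The block also assumes, for each gene, 1 shift between replicates that all groups share. In log2 CPM, replicate 2 less replicate 1 of Chac1 was 0.14 for vehicle, 0.65 for MASM7 and 0.91 for MFI8. For Ppp1r15a it was 0.035, 0.17 and 0.44. The small blocked p-values rest on that assumption, which these shifts did not meet. The plot of CPM in each library shows the levels behind both fits.

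**Figure D2:**
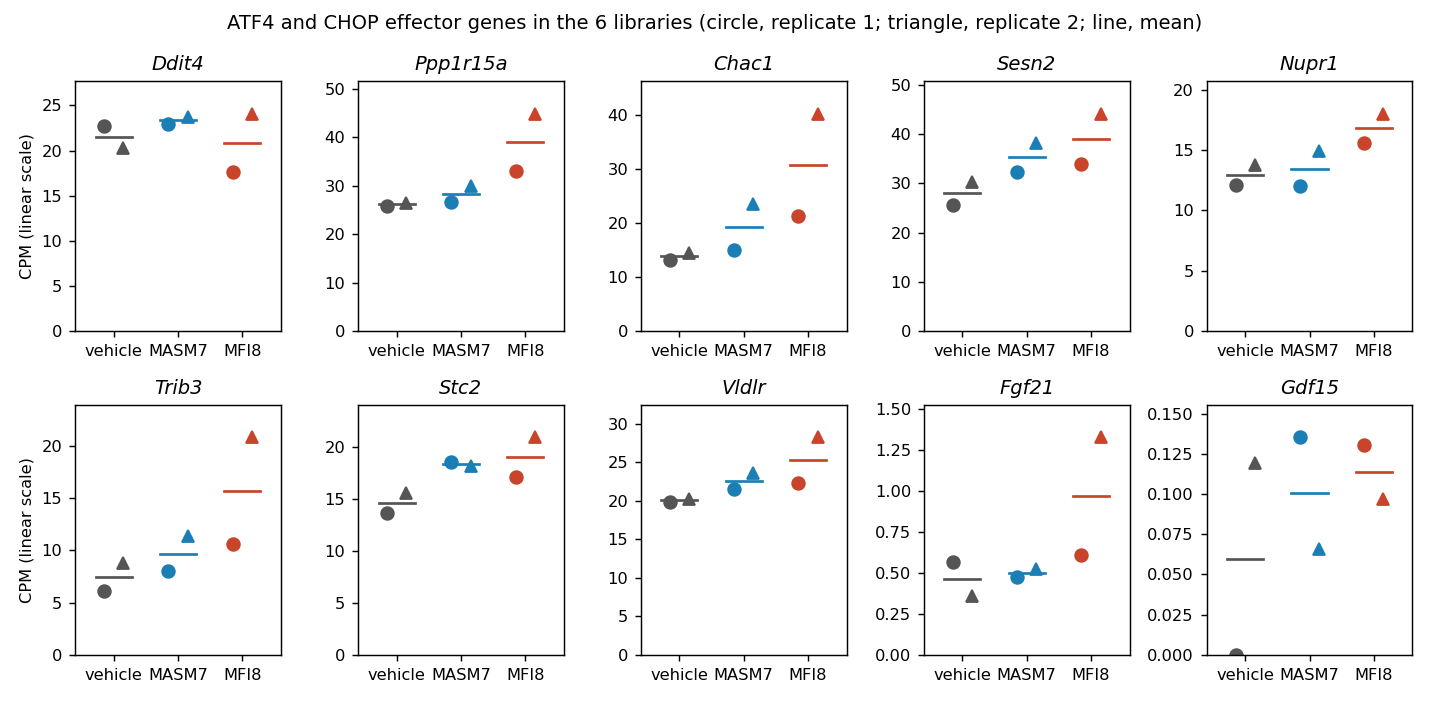
Each panel gives the CPM of an effector gene on a linear axis from 0 in the 6 libraries, with circles for replicate 1, triangles for replicate 2 and a line for the mean of the group. Both MFI8 libraries lie above both vehicle libraries in 8 of the 9 genes tested, Ddit4 being the exception, and Gdf15 stays at or below 0.135 CPM.

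Chac1 (chr2:119351229-119354381, plus strand) encodes a γ-glutamylcyclotransferase that degrades glutathione. It was at 13.2 and 14.5 CPM in vehicle libraries, 15.0 and 23.5 under MASM7, and 21.4 and 40.2 under MFI8. The MFI8 libraries were both above vehicle, and the replicate 2 library was the highest of all 6. The log2 fold change for MFI8 against vehicle was 1.16 with an SE of 0.276 (adjusted p = 0.304 in edgeR, and 6.95e-08 with the replicate block).

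Trib3 (chr2:152337422-152344032, minus strand) encodes a pseudokinase that binds AKT and dampens ATF4 and CHOP activity. Its CPM was 6.09 and 8.74 in vehicle libraries, 7.98 and 11.4 under MASM7, and 10.6 and 20.8 under MFI8. In every group its replicate 2 library was the higher of the pair. The log2 fold change for MFI8 was 1.09 with an SE of 0.298 (adjusted p = 0.356, and 9.24e-07 with the block).

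Ppp1r15a (chr7:45522916-45526268, minus strand) encodes GADD34, the stress-induced subunit that directs protein phosphatase 1 to eIF2α and so restores translation. Its level hardly varied with vehicle, at 25.9 and 26.6 CPM, was 26.7 and 29.9 with MASM7 and reached 33.1 and 44.9 with MFI8. Here the MFI8 libraries lay above all 4 others. The log2 fold change for MFI8 was 0.58 with an SE of 0.129 (adjusted p = 0.265, and 2.33e-05 with the block).

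Sesn2 and Ddit4 both encode inhibitors of mTORC1, the kinase complex that drives growth. Sesn2 (chr4:132492032-132510501, minus strand), which encodes the leucine sensor Sestrin2, was at 25.7 and 30.3 CPM in vehicle libraries, 32.4 and 38.3 under MASM7, and 34.0 and 44.2 under MFI8. Both compounds' libraries were above those with vehicle and overlapped each other. The log2 fold change for MFI8 was 0.48 with an SE of 0.134 (adjusted p = 0.357, and 3.94e-05 with the block). Ddit4 (chr10:59949669-59951834, minus strand), which encodes REDD1, was at 22.8 and 20.3 CPM in vehicle libraries, 23.0 and 23.7 under MASM7, and 17.6 and 24.1 under MFI8. The MFI8 libraries of Ddit4 held both the lowest and the highest value of all 6. Its log2 fold change for MFI8 was -0.037, with a 95% interval from -0.34 to 0.26 (adjusted p = 0.946 in edgeR, and 0.888 with the block).

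Nupr1 (chr7:126623249-126630861, minus strand) encodes a small stress-induced chromatin protein. It was at 12.1 and 13.8 CPM in vehicle libraries, 12.0 and 14.9 under MASM7, and 15.6 and 18.0 under MFI8, so MFI8 was above both other groups. Its log2 fold change for MFI8 was 0.38 with an SE of 0.132 (adjusted p = 0.413, and 0.0174 with the block). Vldlr (chr19:27216484-27254231, plus strand), the very low density lipoprotein receptor, was at 19.9 and 20.2 CPM in vehicle libraries, 21.6 and 23.6 under MASM7, and 22.3 and 28.2 under MFI8. Vehicle was the lowest group, and the compounds' libraries overlapped. The log2 fold change of Vldlr for MFI8 was 0.34 with an SE of 0.114 (adjusted p = 0.412, and 0.0160 with the block).

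The 3 genes for secreted factors differed mainly in how far they were expressed. Stc2 (chr11:31357307-31370074, minus strand), which encodes the glycoprotein stanniocalcin 2, was at 13.6 and 15.6 CPM in vehicle libraries, 18.6 and 18.2 under MASM7, and 17.1 and 20.9 under MFI8. Both compounds' libraries lay above vehicle. Its log2 fold change for MFI8 was 0.38 with an SE of 0.117 (adjusted p = 0.384, and 0.0144 with the block). Fgf21 (chr7:45613886-45615490, minus strand), a metabolic hormone, was near the detection limit, with 13 and 9 counts for vehicle, 14 and 16 for MASM7, and 14 and 41 for MFI8. In CPM this was 0.570 and 0.358, then 0.473 and 0.526, then 0.610 and 1.33 CPM, so only the MFI8 replicate 2 library stood well apart. The log2 fold change of Fgf21 was 1.11 with an SE of 0.459 (adjusted p = 0.464), and it did not pass with the block (adjusted p = 0.160). Gdf15 (chr8:70629393-70632456, minus strand), the ligand of the brainstem receptor GFRAL, was counted 0 and 3 times under vehicle, 4 and 2 times under MASM7, and 3 and 3 times under MFI8. The count of 0 allows up to 3 counts, or 0.132 CPM, by counting error alone, and no difference was detectable at this depth.

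**Figure D3:**
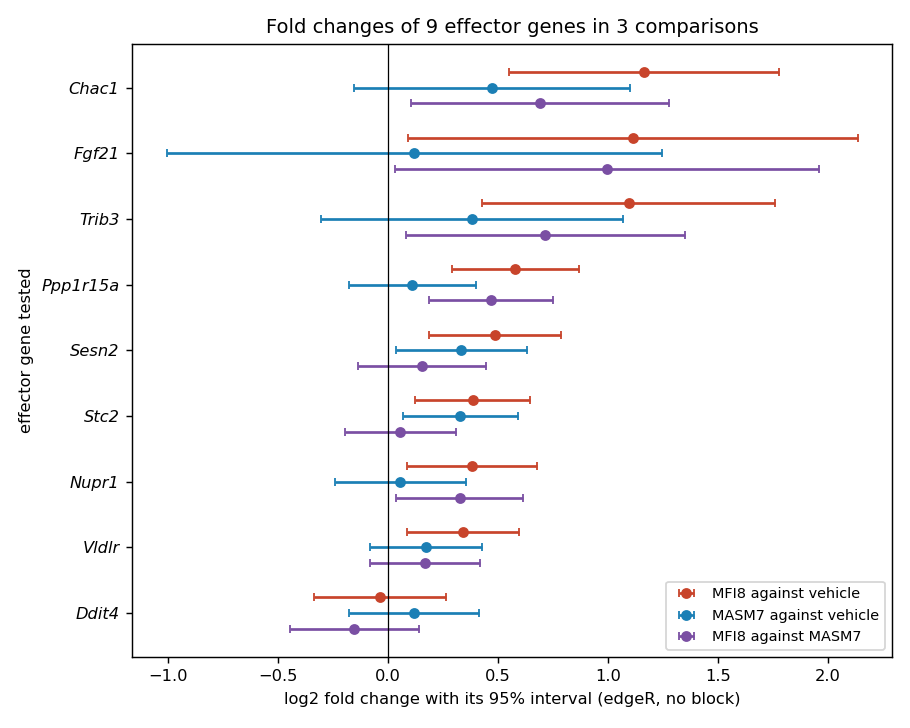
Points are log2 fold changes of the 9 effector genes tested, with 95% intervals from the edgeR fit of all 6 libraries without the block, for MFI8 against vehicle (red), MASM7 against vehicle (blue) and MFI8 against MASM7 (purple). For MFI8 against vehicle 8 intervals lie above 0, and the interval of Ddit4 spans it.

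In the MFI8 group all 9 effector genes were higher in replicate 2 than in replicate 1, with a median log2 difference of 0.44, while the median over all genes was 0.0027. The corresponding median over the effector genes was 0.14 for vehicle (7 of 9 higher in replicate 2) and 0.17 for MASM7 (8 of 9). Leaving out a library leaves its group with 1, which is then assumed to vary like the other groups, so that the tests without an MFI8 library hold no spread within MFI8. Without the MFI8 replicate 2 library the effector genes with a higher level at an unadjusted p under 0.05 went from 8 to 2, Chac1 and Ppp1r15a, Ddit4 was below 0 at an unadjusted p under 0.05, and the median log2 fold change went to 0.28. Trib3 then stood at 0.51, Chac1 at 0.63 and Fgf21 at 0.40, and with the block at 0.80, 0.85 and 0.30, of which Trib3 and Chac1 passed after adjustment. With the block Chac1 was lower still without vehicle replicate 2, at 0.77, and passed there too. The 8 genes all stayed above vehicle whichever MFI8 library was left out. Without replicate 1 of MFI8 instead, the library in which all 9 genes were lower, the adjusted test in edgeR passed 3 effector genes, Chac1, Trib3 and Ppp1r15a, among 26 genes in all, on the 1 MFI8 library left. With the block, leaving out a library gave 4 to 8 effector genes called among 159 to 1107 genes in all. The number was 4 when either MFI8 replicate 2 (159 genes in all) or vehicle replicate 2 (238 genes in all) was left out.

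**Figure D4:**
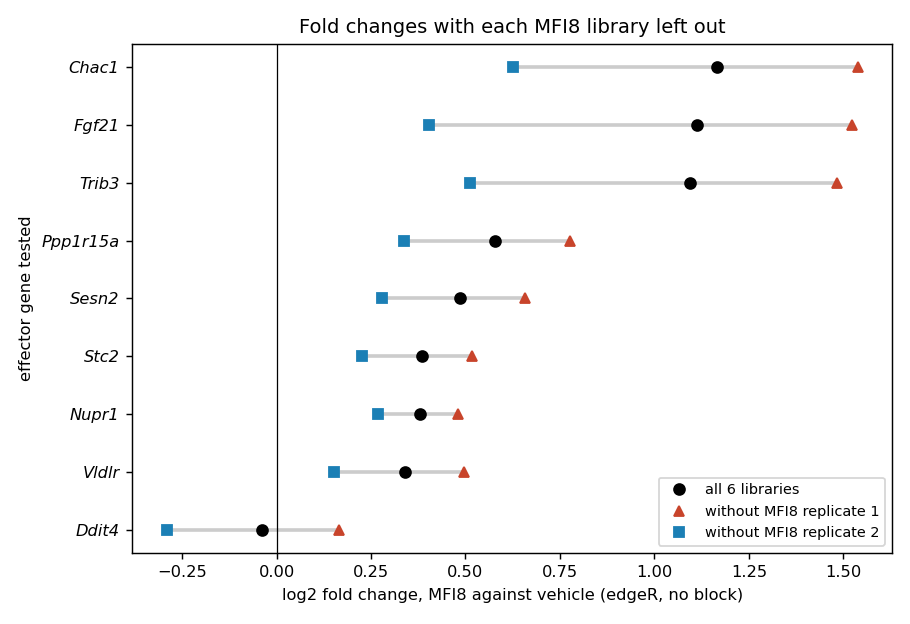
For each effector gene tested, the log2 fold change for MFI8 against vehicle (edgeR, no block) is drawn with all 6 libraries (black circle), without MFI8 replicate 1 (red triangle) and without MFI8 replicate 2 (blue square). In 8 genes all 3 values are above 0, and Ddit4 changes sign.

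For MASM7 against vehicle, all 9 effector genes tested had a log2 fold change above 0, from 0.056 for Nupr1 to 0.47 for Chac1, with a median of 0.17 against 0.00067 over all genes. In 6 of the 9 genes both MASM7 libraries lay above both vehicle libraries, a pattern found for 21.2% of all genes. At an unadjusted p under 0.05, 2 effector genes were higher, Sesn2 and Stc2, against 5.32% of all genes. After adjustment edgeR called 0 effector genes and 0 of all genes (0%), with 1458 genes at an unadjusted p under 0.05, and DESeq2 called 0 effector genes and 2 genes in all (0.00747%).

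With the block 3 effector genes passed as higher for MASM7, against 2.48% of all genes higher and 1.39% lower. These were Sesn2 at a log2 fold change of 0.33 (adjusted p = 0.00874 with the block, 0.477 without), Chac1 at 0.47 (adjusted p = 0.0213 with the block, 0.571 without) and Stc2 at 0.33 (adjusted p = 0.0403 with the block, 0.473 without). Trib3 at 0.38 and Vldlr at 0.17 did not pass in either fit. With the block, leaving out vehicle replicate 2 or MASM7 replicate 2, and so keeping 1 library of that group, took the number of effector genes called to 0, with 51 and 31 genes called in all. The value of Chac1 then went to 0.11 without vehicle replicate 2, and without the block it ranged from 0.11 without MASM7 replicate 2 to 0.76 without MASM7 replicate 1. Ppp1r15a was at 0.11 with a 95% interval from -0.18 to 0.40 and did not pass in either fit.

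The comparisons of MFI8 and of MASM7 with vehicle share the vehicle libraries, and the direct contrast of the compounds reuses the treated ones at 20 μM and 1 μM. In that contrast, Trib3 was 0.71 log2 units higher with MFI8 (SE 0.284), Chac1 0.69 (SE 0.263), Ppp1r15a 0.47 (SE 0.126), Nupr1 0.33 (SE 0.129) and Fgf21 0.99 (SE 0.432). These 5 of the 9 effector genes had an unadjusted p under 0.05 with a higher level, against 4.23% of all genes. Nupr1, Ppp1r15a and Fgf21 did not overlap between the compounds, with MFI8 higher, a pattern found for 19.6% of all genes. In edgeR 0 effector genes and 0 of all genes (0%) passed after adjustment, with 1026 genes at an unadjusted p under 0.05, and DESeq2 called 0 effector genes and 29 genes in all (0.231%).

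With the block, 4 of the 9 passed as higher with MFI8 than with MASM7, against 1.76% of all genes: Chac1 (adjusted p = 9.49e-05), Trib3 (adjusted p = 0.000345), Ppp1r15a (adjusted p = 0.000355) and Nupr1 (adjusted p = 0.0471). Sesn2, Stc2, Vldlr and Ddit4 showed no difference between the compounds past the test in either fit. Their intervals were -0.14 to 0.44 for Sesn2, -0.20 to 0.31 for Stc2, -0.081 to 0.42 for Vldlr and -0.45 to 0.14 for Ddit4. Without MFI8 replicate 2, 0 effector genes were higher at an unadjusted p under 0.05, and Ddit4 was at -0.41, below 0 at the same threshold. Trib3 then went to 0.13, Chac1 to 0.15, Ppp1r15a to 0.23, Nupr1 to 0.21 and Fgf21 to 0.28, and with the block to 0.41, 0.39, 0.28, 0.35 and 0.18. With the block and without that library, none of Chac1, Trib3, Ppp1r15a and Nupr1 passed after adjustment, and the 1 effector gene under the threshold, among 116 genes in all, was Ddit4 at -0.43. Both values of Ddit4 compare 1 MFI8 library with MASM7 and hold no spread within MFI8. Sesn2, Stc2 and Vldlr were then below 0 without the block (-0.055, -0.10 and -0.018), while with it Sesn2 and Vldlr stayed above 0 (0.071 and 0.023).

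All 8 listed transcription factors of the stress response had a log2 fold change above 0 for MFI8 against vehicle, with a median of 0.23. In edgeR with the filter on low counts 0 of the 8 passed after adjustment without the block. With every gene of at least 1 count kept, 4 passed as higher, among 256 genes in all. DESeq2 without a block called 1, Ddit3 (adjusted p = 0.00297). In edgeR with the block 5 passed as higher, against 2.79% of all genes: Atf3, Ddit3, Jdp2, Atf5 and Atf4. Cebpb at 0.15, Nfil3 at 0.078 and Cebpg at 0.031 did not pass in edgeR with the filter on low counts, with or without the block. Ddit3, which encodes CHOP, was at 12.1 and 11.2 CPM in vehicle libraries, 13.9 and 14.1 under MASM7, and 17.5 and 21.3 under MFI8. The 3 groups did not overlap in Ddit3. Its log2 fold change for MFI8 was 0.74 with an SE of 0.116 (adjusted p = 0.0924, and 2.19e-05 with the block), the smallest adjusted p of all genes in edgeR and one that other genes, among them Slc7a11 and Hmox1, shared. Atf3, an early stress-induced factor, was at 2.24 and 3.06 CPM in vehicle libraries, 2.47 and 3.65 under MASM7, and 6.75 and 20.9 under MFI8. Its log2 fold change of 2.40 (SE 0.463, adjusted p = 0.186, and 7.58e-09 with the block) went to 1.34 without MFI8 replicate 2. For MASM7 0 of the 8 factors passed in any of these edgeR fits, with a median of 0.15.

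Other targets of ATF4 include the genes that bring in, make and load amino acids. In the lists of these genes 0 passed in edgeR with the filter on low counts and without the block for either compound. With every gene of at least 1 count kept, 6 transporters and 1 tRNA synthetase passed as higher for MFI8, among 256 genes in all. For MASM7 2 synthesis genes did, among 127. DESeq2 called Slc7a11 alone, for MFI8. The edgeR counts with the block stand against 2.79% of all genes higher for MFI8 and 2.48% for MASM7. Of 9 amino acid transporters 6 passed as higher with the block for MFI8 and 0 as lower, with a median log2 fold change of 0.22, and 2 passed as higher for MASM7, with a median of 0.14. Slc7a11, the cystine transporter that supplies glutathione synthesis, was 0.86 higher (SE 0.120, adjusted p = 0.0924 in edgeR, 1.72e-06 with the block and 0.000140 in DESeq2), and the arginine and lysine transporter Slc7a1 was 0.22 higher (adjusted p = 0.00184 with the block). Of 11 amino acid synthesis genes tested 4 passed as higher for MFI8, with a median of 0.18, and 2 for MASM7, with a median of 0.10. Aldh1l2 of mitochondrial folate metabolism was among them at 0.21 (0.088 without MFI8 replicate 2 and without the block), while the proline synthesis gene Pycr1 at 0.25 did not pass (adjusted p = 0.0693 with the block). Of 20 cytosolic tRNA synthetases 2 passed as higher for MFI8, with a median of 0.066, and 4 for MASM7, with a median of 0.069. For MFI8 the alanine enzyme gene Aars was 0.20 higher (adjusted p = 0.00498 with the block) and 0.097 without MFI8 replicate 2 and without the block, and the cysteine enzyme gene Cars at 0.15 did not pass (adjusted p = 0.0597 with the block).

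In the lists around the pathway 0 genes passed in DESeq2, or in edgeR with the filter on low counts and without the block, for either compound. With every gene of at least 1 count kept, 1 endoplasmic reticulum gene and 1 p53 target passed as higher for MFI8, among 256 genes in all. For MASM7 1 kinase or relay gene, 1 endoplasmic reticulum gene and 1 hypoxia target did, among 127. The counts that follow are those of edgeR with the block. Of 9 genes for the eIF2α kinases and their relay 1 passed as higher for MFI8, against 2.79% of all genes: Gcn1, the activator of the kinase GCN2, at 0.17. Eif2s1, which encodes eIF2α, was at -0.10 and did not pass. Of 16 genes of the ATF6 and XBP1 arms of the endoplasmic reticulum response 1 passed for MFI8, Herpud1 at 0.45 (0.20 without MFI8 replicate 2 and without the block), a degradation factor also induced by ATF4, and the median was 0.080. Dnajb9, a target of XBP1, was at 0.27 and did not pass with the block (adjusted p = 0.165). For MASM7, 5 of these 16 passed as higher with the block, against 2.48% of all genes, with a median of 0.098. Of 15 p53 targets 1 passed for MFI8, Plk2 at 0.26, while Ccng1 was at -0.15 without passing. Of 14 hypoxia targets tested 1 passed as higher for MFI8 and 2 as lower, against 2.25% of all genes lower: Bnip3 at -0.41 and P4ha1 at -0.18. For MASM7 with the block 0 of the p53 and hypoxia targets passed, though Bnip3 was at -0.32 and P4ha1 at -0.13. For MFI8 against MASM7 these 2 genes were at -0.084 and -0.050. Of the 9 kinase and relay genes 1 passed as higher for MASM7, Gcn1 at 0.21, and 1 as lower, Eif2ak2 at -0.20. The shares of all genes were 2.48% higher and 1.39% lower. The plot by gene list sets these values beside the effector genes.

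**Figure D5:**
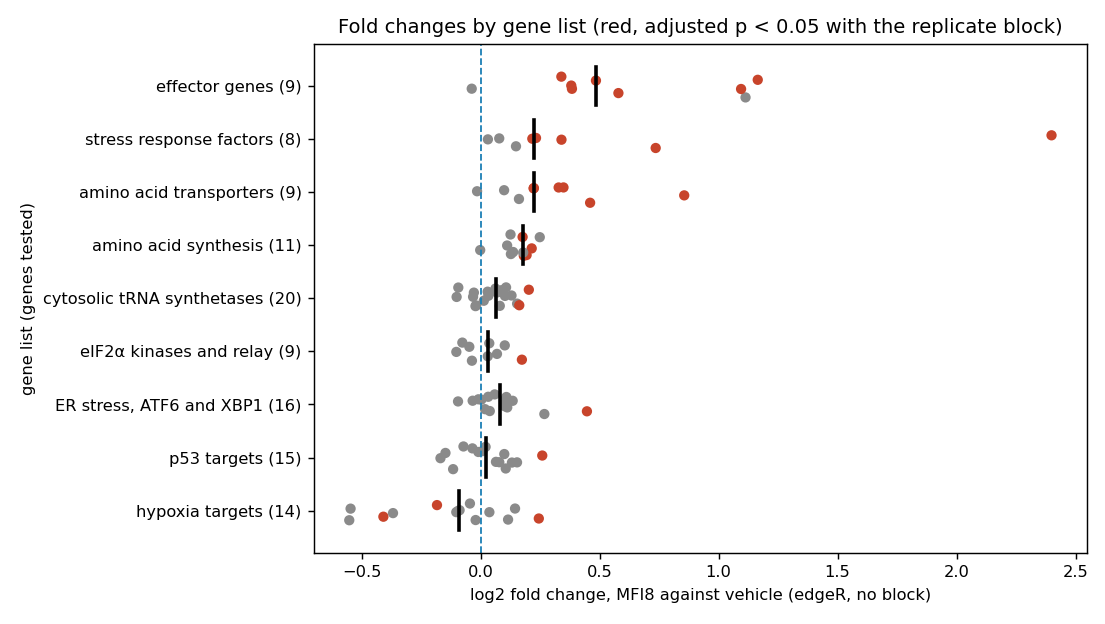
Each point is a gene's log2 fold change for MFI8 against vehicle (edgeR, no block), by gene list with the number tested in brackets. Black bars are list medians, the dashed line is the median of all genes tested, and red points passed at an adjusted p under 0.05 with the replicate block (7 of 9 effector genes). Medians are 0.48 for the effector genes, 0.23 for the stress response factors, 0.22 for the transporters and between -0.092 and 0.18 for the other lists.

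Of 11 fibroblast markers tested for MFI8 against vehicle 0 passed in edgeR with the filter on low counts and without the block. With every gene of at least 1 count kept, 1 passed as higher and 3 as lower, among 256 genes in all. With the block 1 passed as higher, the smooth muscle actin gene Acta2 at 0.34 (adjusted p = 1.13e-05), and 5 as lower. The shares of all genes were 2.79% higher and 2.25% lower, and the median log2 fold change of the markers was -0.16. Col3a1, a fibrillar collagen gene, was at -0.53 (adjusted p = 1.13e-05 with the block), from -0.89 without vehicle replicate 2 to -0.057 without vehicle replicate 1. The growth factor receptor gene Pdgfrb was at -0.34 (adjusted p = 0.0191 with the block), from -0.61 to -0.030 without the same libraries. In all 11 markers tested, Acta2 among them, the MFI8 libraries overlapped those with vehicle. Acta2 was also higher with MASM7, at 0.36 (adjusted p = 3.57e-05 with the block), and stood at -0.025 for MFI8 against MASM7. Of the markers of other cell types 2 were tested and 0 passed: the epithelial keratin gene Krt8 was at 1.04 on 4 to 12 counts per library, and the macrophage marker Cd68 was at -0.25. What part these differences have in the levels of the effector genes was not tested.

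The genes most like Ppp1r15a and Chac1 across the 6 libraries were sought among the 14289 other genes tested, by the root mean square difference of log2 CPM after each gene's vehicle mean was subtracted. For Ppp1r15a these were Stx3, a membrane fusion protein gene, at a difference of 0.056, the small MAF transcription factor gene Maff at 0.078 and Gm47594 at 0.078. For Chac1 the nearest gene was another effector, Trib3, at 0.12, followed by the heme oxygenase gene Hmox1 at 0.16 and the intermediate filament gene Synm at 0.18. Hmox1 was at 35.0 and 41.4 CPM in vehicle libraries, 44.9 and 54.3 under MASM7, and 68.5 and 120.5 under MFI8. As in Chac1, the MFI8 replicate 2 library was the highest.

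Genes with a CARE match in a promoter window were counted across all genes after the data had been seen, and the counts are a description without a test. With the effector genes left out, 248 tested genes held a match, and 22 of them (8.87%) passed as higher for MFI8 with the block, against 3.16% of the 9807 tested genes with a window. Without the block 0 genes passed the adjusted test, and the shares higher at an unadjusted p under 0.05 were 9.68% and 5.78%. For MASM7 the shares with the block were 2.02% and 2.76%. Of the 358 genes with a CRE match 2.79% passed as higher with the block for MFI8 and 3.63% for MASM7. The effector genes themselves held matches both where the block called them (Chac1, Trib3, Nupr1 and Vldlr) and where it did not (Fgf21), and Sesn2 and Stc2 passed without a match in these windows.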

How the data were processed

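The members, gene lists and tests were chosen with earlier results of these data known. RNA-seq libraries of WT MEFs (vehicle, MASM7 and MFI8, 2 each) were analysed from the authors' tables. The authors used Trimmomatic for trimming, STAR for alignment to GRCm38 and featureCounts for reads on exons, and deposited the resulting raw counts. The authors also deposited TPM, used here for levels between genes and for limma. Their size-factor-normalized table was not used. Annotation release and strand setting are not given in the sources used here.

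Counts were fitted in edgeR 4.0.16 (R 4.3.3) with TMM, filterByExpr, the group alone as a term and all 6 libraries (quasi-likelihood F test, Benjamini-Hochberg adjustment over 14290 genes, threshold 0.05). CPM used TMM factors of 0.991 to 1.01, and log2 CPM a prior count of 2. The common dispersion was 0.00394. SE was obtained as log2 fold change over the root of the F statistic. The floor of a count of 0 covers counting error only, while the 95% intervals of fold changes come from the edgeR fit and include the spread between libraries.

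Libraries are numbered 1 and 2 in each group in the labels. Deviations from the group means correlated between same-numbered libraries at r = 0.188 (vehicle and MASM7), 0.152 (vehicle and MFI8) and 0.165 (MASM7 and MFI8) over 14290 genes, all above the limit of 0.1 used here for pairing, so a second fit, blocked on that number, is given beside the main one. This was settled with the blocked calls already known, and the labels name no shared batch. An exact permutation test of 2 libraries against 2 cannot go below 0.333 and was not used.

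Alternatives were DESeq2 size factors, library size alone, 2 other count filters, only the 2 groups compared, the block, the DESeq2 1.42.0 Wald test, limma 3.58.1 on log2(TPM + 1) or log2(TPM + 0.1), and each library left out. The block with each library left out was added after the data were seen. All 10 effector genes were named, with the 2 genes of smallest p for MFI8 in each other list and the 3 genes most like each of 2 effector genes. Other genes named from the lists were chosen after their values were seen. Scripts were tested on simulated counts. Promoter sequences came from RefSeq (GRCm38.p6) and gene models from GENCODE vM21, matched by symbol for all 10 effector genes.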

Additional observations from a re-analysis of the deposited data

How the results depend on the processing

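At an adjusted p under 0.05 edgeR called 0 genes and 0 effector genes in each comparison. With every gene of at least 1 count in a library kept, these counts became 256 and 4 for MFI8 against vehicle, 127 and 2 for MASM7, and 168 and 3 between the compounds. With the replicate block they became 720 and 7, 554 and 3, and 439 and 4. DESeq2 gave 48 genes and 1 effector gene for MFI8, 2 genes for MASM7 and 29 between the compounds. With only the 2 groups compared in the fit, 1 gene passed for MASM7 and 2 between the compounds, and limma on log2(TPM + 1) with no filter gave 13 for MASM7. Other alternatives left the counts at 0. Leaving out a library without the block gave 0 to 26 genes and 0 to 3 effector genes for MFI8, 0 to 2 and 0 for MASM7, and 0 to 24 and 0 to 2 between the compounds. Leaving one out with the block gave 159 to 1107 and 4 to 8 for MFI8, 31 to 1234 and 0 to 4 for MASM7, and 116 to 803 and 1 to 4 between the compounds. The cause was not tested.

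Among the fold changes of the effector genes, 476 alternative values kept their direction and side of the threshold, 96 passed it and 19 turned. All 19 came from leaving out a library. The ranges that crossed 0 were -0.315 to 0.192 for Ddit4 with MFI8, and, with MASM7, -0.083 to 0.315 for Ddit4, -0.108 to 0.203 for Nupr1, -0.031 to 0.241 for Ppp1r15a and -0.572 to 0.798 for Fgf21. Between the compounds they were -0.055 to 0.326 for Sesn2, -0.434 to 0.075 for Ddit4, -0.018 to 0.325 for Vldlr and -0.102 to 0.189 for Stc2. Other named genes that crossed 0 did so with MASM7. Col3a1 was at 0.000722 with every gene of at least 1 count kept. Leaving out a library gave -0.108 to 0.455 for Atf3, -0.030 to 0.082 for Aldh1l2, -0.033 to 0.422 for Herpud1, -0.069 to 0.030 for Dnajb9, -0.380 to 0.453 for Col3a1, -0.311 to 0.263 for Pdgfrb and -0.162 to 0.103 for Cd68.

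Depth limits Gdf15, at 0 to 4 counts per library, and Fgf21, at 9 to 41. With 2 libraries a group, the spread rests on few values.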
